A study of Canis lupus familiaris with 12 samples.

Results

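Proteasome genes of the dog heart were examined by RNA sequencing of left ventricle and mitral valve, taken from control dogs and from patients with degenerative mitral valve disease. In this disease, DMVD for short, the leaflets thicken until the valve leaks. Members were the genes whose name in the deposited tables is PSM, a letter from A to G and a number. The pattern found 39 genes, and a further row with the UniProt entry name PSB8_CANFA was read as PSMB8, which gives 40 of the 24223 genes listed for each tissue. No row carried the names PSMA1, PSMA2, PSMA4, PSMA7, PSMB7, PSMC3, PSMD5 or PSMD9. The authors tested 37 of the 40 in the left ventricle and the same 37 in the mitral valve. The other 3, PSMA8, PSMB11 and PSMG4, were listed but not tested.

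The series holds 12 libraries from 8 dogs. The DMVD ventricle group was a Jack Russell Terrier aged 5 and a Pomeranian aged 9 years, against 4 control ventricles. The DMVD valve group was the valve of that Pomeranian with those of Beagles aged 16 and 17 years, against 3 control valves. The control dogs were a Beagle aged 8 and Hound mixes aged 3 years, and 3 of them gave both tissues, as did 1 DMVD dog. Breed and age differ between diseased and control dogs, so their part cannot be told apart from that of diagnosis. The deposited tables give 1 value per diagnosis and tissue in FPKM (fragments scaled to transcript length and library size), so the spread between dogs and the depth of each library are unknown. Log2 fold changes divide the DMVD by the control group value. They are followed by ± the standard error (SE) that the authors' test statistic implies, and adjusted p values are Benjamini-Hochberg values over all genes the authors tested in that tissue. A gene was called at an adjusted p under 0.05.

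The proteasome is the protease that degrades most ubiquitin-tagged proteins in the cytosol and nucleus. Its 20S core is a barrel of alpha and beta rings with the cutting sites inside, and the 19S cap binds tagged proteins, removes the ubiquitin and unfolds them with a ring of ATPases. Cells exposed to interferon-gamma, and immune cells constitutively, replace the catalytic beta subunits by PSMB8, PSMB9 and PSMB10, which changes the peptides offered to MHC class I. In heart muscle the system turns over sarcomere proteins and damaged proteins.

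No proteasome gene passed the test in either tissue. Of 37 tested genes 0 were called in the left ventricle, where 3.08% of all 13788 tested genes were (1.92% higher and 1.16% lower in DMVD). In the mitral valve 0 of 37 were called, where 0.419% of 14810 genes were (0.311% higher and 0.108% lower). At these background shares a count of 0 among 37 is no result about the proteasome genes. None had an unadjusted p under 0.05 in the authors' deposited table either, in a background of 11.3% of ventricle genes and 4.2% of valve genes. The smallest adjusted p was 0.556 in the ventricle, for PSMD10, and 0.9999 in the valve. Values nevertheless lay on different sides in the tissues. In the ventricle 25 of 37 genes had a higher value in DMVD, with a median log2 fold change of 0.19, where 46.8% of all tested genes were higher and their median was -0.04. In the valve 8 of 37 were higher, with a median of -0.11, where 54.9% of all tested genes were higher and their median was 0.05. These counts and medians describe the group values and carry no test. The summed value of all listed genes also differed, at 1066810 FPKM in DMVD and 1900930 FPKM in control ventricle. Single genes weigh heavily in it: the highest tested value was 53849 FPKM in DMVD and 416027 FPKM in control. The control sum also counts the muscle genes MYH7 and CKM at a listed 0. The part of the summed value in the proteasome values was not tested.

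The tables bound the changes only loosely. The median SE of a proteasome gene was 0.42 in the ventricle and 0.44 in the valve, against 0.53 and 0.61 over all tested genes. The point estimate was within 0.5 of 0 on the log2 scale for 33 of 37 genes in the ventricle and for 34 of 37 in the valve. The 95% interval lay wholly within a 2-fold change either way for 10 of 37 genes in each tissue, which is 27.0%, against 8.82% of all ventricle genes and 7.05% of all valve genes. For the other 27 genes a 2-fold change in at least 1 direction was inside the interval.

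Markers of blood cells and of other cell types were read in the same groups. Called genes made up 3.08% of all tested genes in the ventricle and 0.419% in the valve. At these shares a count of 0 among a few markers is no result about a cell type. In the ventricle all 4 erythroid markers found in the table rose, and their summed value was 3604 FPKM in DMVD and 62.6 FPKM in control. All 4 neutrophil markers rose there as well, with sums of 376 and 14.1 FPKM. Of 3 tested leukocyte markers 0 were called in the ventricle, with sums over the 6 markers found of 48.1 and 28.2 FPKM. The marker CD74, at 43.4 and 25.3 FPKM, made up most of these sums. In the valve 1 of 4 erythroid markers (HBA) and 1 of 4 neutrophil markers (S100A9) rose. The call of S100A9 was lost when values were centred on the median of all tested genes (adjusted p of 0.0558) and with the Benjamini-Yekutieli adjustment (0.474). The valve sums were 608 and 35.8 FPKM for the erythroid and 42.9 and 8.57 FPKM for the neutrophil markers. Of 8 cardiomyocyte markers in the valve 1 fell, the ventricular light chain MYL3 (-5.19 ± 0.68), 7 had lower values, and their sum was 8496 FPKM in DMVD and 17450 FPKM in control. The valve samples thus held heart muscle RNA beside the collagen gene COL1A1, listed at 201 and 127 FPKM. Of 6 cardiomyocyte markers tested in the ventricle 0 were called. MYH7 and CKM were left untested there by the authors, with the status HIDATA in place of a test result. They were listed at 1637 and 6855 FPKM in the DMVD ventricle and at 0 in the control ventricle. With that status the 0 is not read as absent expression. Of the remaining markers, the endothelial gene VWF rose and both adipocyte markers found fell in the ventricle, while 0 of 4 tested fibroblast and valve interstitial markers were called in either tissue, and 0 of 3 endothelial and 0 of 2 adipocyte markers in the valve. With the Benjamini-Yekutieli adjustment the ventricle calls of VWF, the adipocyte marker CIDEC and the erythroid marker ALAS2 were lost. In bulk tissue, fewer cells of a type and less RNA per cell cannot be told apart. The part of these markers in the proteasome values was not tested.

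**Figure D1:**
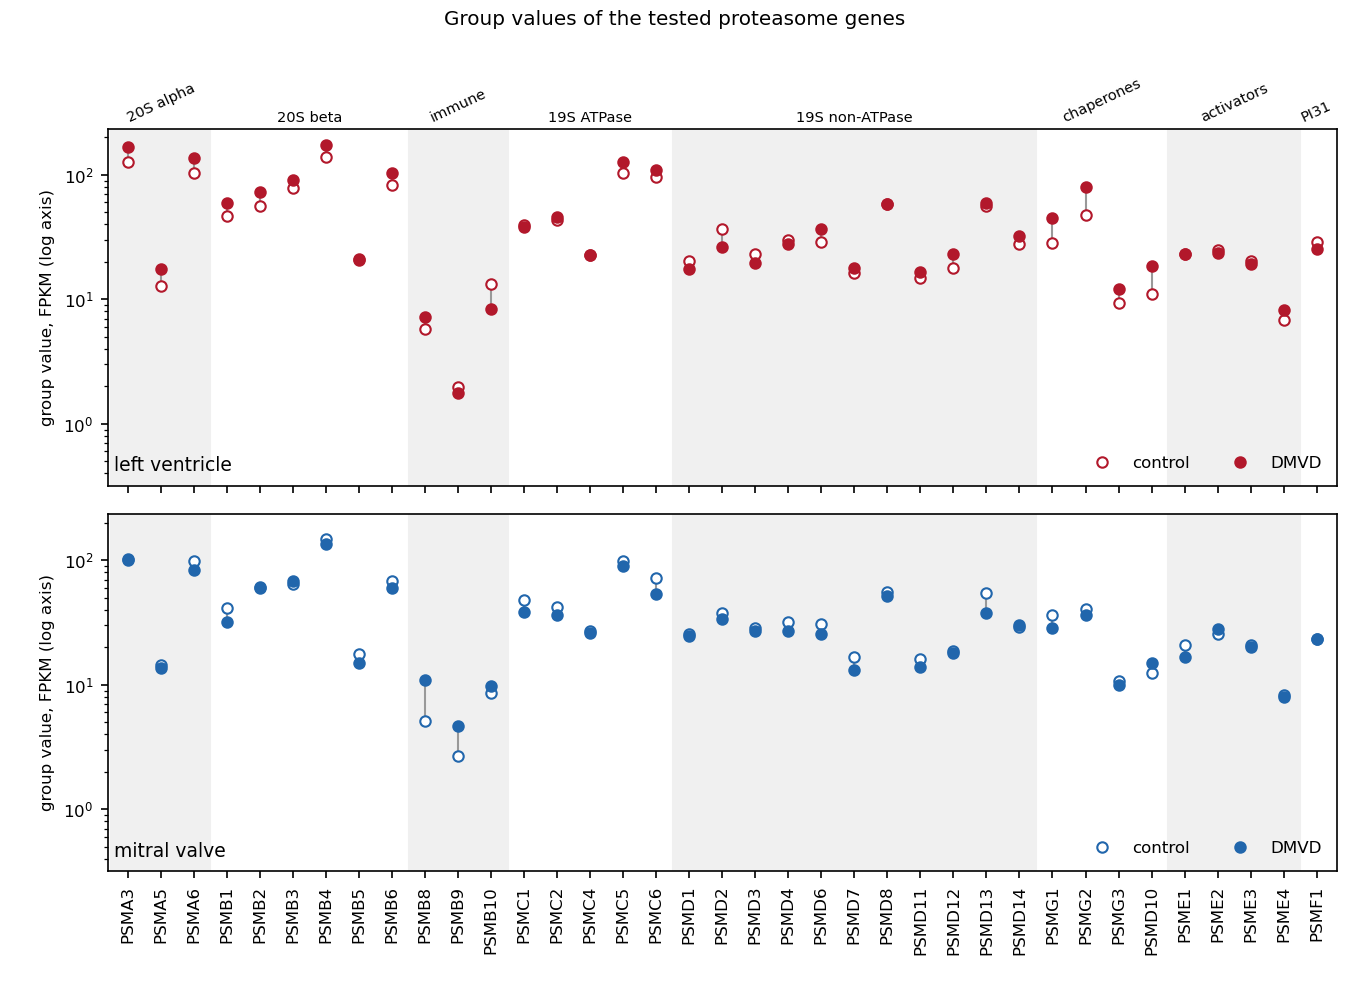
Group values in FPKM (log axis) of the 37 tested proteasome genes, ordered by role, with control as open and DMVD as filled circles, the left ventricle above and the mitral valve below. PSMB4 is the highest gene in all 4 groups and PSMB9 the lowest.

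The plot of group values shows how unequal the messages of a single particle were. FPKM values, which are per length, spanned 11.0-fold in the control ventricle among the 25 tested subunits of the constitutive core and the cap. The lowest there was the alpha subunit PSMA5 with 12.7 FPKM and the highest the beta subunit PSMB4 with 140 FPKM. In the control valve the same genes marked the ends, with 14.4 FPKM for PSMA5 and 148 FPKM for PSMB4, a 10.3-fold span. The order of the levels was then compared between groups. Across these 25 subunits, Spearman's rho was 0.99 between the control groups of the tissues, 0.97 between DMVD and control ventricle, 0.98 between DMVD and control valve and 0.93 between the DMVD groups of the tissues. These are descriptions over subunits, and the control groups share 3 dogs. As a whole the tested proteasome genes were well expressed, with a median of 28.1 FPKM in the control ventricle, where the median of all tested genes was 4.67, and of 29.3 against 5.84 FPKM in the control valve. The tables were normalised separately, so levels are read within a tissue.

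The alpha ring, which gates entry to the core, had 3 tested members. PSMA3 had 167 FPKM in DMVD and 127 in control ventricle, and 102 and 100 FPKM in the valve. PSMA6 had 135 and 103 FPKM in the ventricle and 83.9 and 99.3 in the valve. PSMA5 had 17.6 and 12.7 FPKM in the ventricle and 13.8 and 14.4 in the valve. All 3 thus had higher DMVD values in the ventricle, with log2 fold changes of 0.39 ± 0.47 for PSMA3, 0.40 ± 0.42 for PSMA6 and 0.47 ± 0.41 for PSMA5. In the valve the values were 0.02 ± 0.44, -0.24 ± 0.43 and -0.06 ± 0.43 in the same order. None of these 6 values was called. PSMA8, the alpha subunit of the testis, was listed at 0.0462 and 0.206 FPKM in the ventricle and at 0.408 and 0.0463 FPKM in the valve, and was not tested.

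The constitutive beta ring had 6 tested members, and their values paralleled the alpha ring. In the ventricle all 6 were higher in DMVD, from 0.04 ± 0.42 for PSMB5 to 0.36 ± 0.44 for PSMB1, with a median of 0.31. PSMB5, the chymotrypsin-like site and the main target of proteasome inhibitor drugs, had 21.2 FPKM in DMVD and 20.7 in control. PSMB6, the caspase-like site, had 103 and 82.6 FPKM (0.32 ± 0.42). PSMB4 had 174 and 140 FPKM (0.31 ± 0.42), PSMB3 91.4 and 78.1 FPKM (0.23 ± 0.41) and PSMB1 59.9 and 46.5 FPKM. PSMB2 had the smallest p of the ring, with 72.1 and 56.4 FPKM (0.35 ± 0.42, adjusted p of 0.941). In the valve 5 of the 6 were lower in DMVD, with a median of -0.17. PSMB1 had 31.9 and 41.1 FPKM there (-0.37 ± 0.43), PSMB5 15.0 and 17.8 FPKM (-0.25 ± 0.43) and PSMB6 59.4 and 68.2 FPKM (-0.20 ± 0.43). PSMB4 had 135 and 148 FPKM and PSMB2 59.7 and 61.1 FPKM. The exception was PSMB3, with 68.8 and 64.7 FPKM (0.09 ± 0.44). Summed over the alpha and constitutive beta genes in the tables, the core stood at 841 FPKM in DMVD and 667 FPKM in control ventricle, a ratio of 1.26, and at 569 and 615 FPKM in the valve, a ratio of 0.927.

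**Figure D2:**
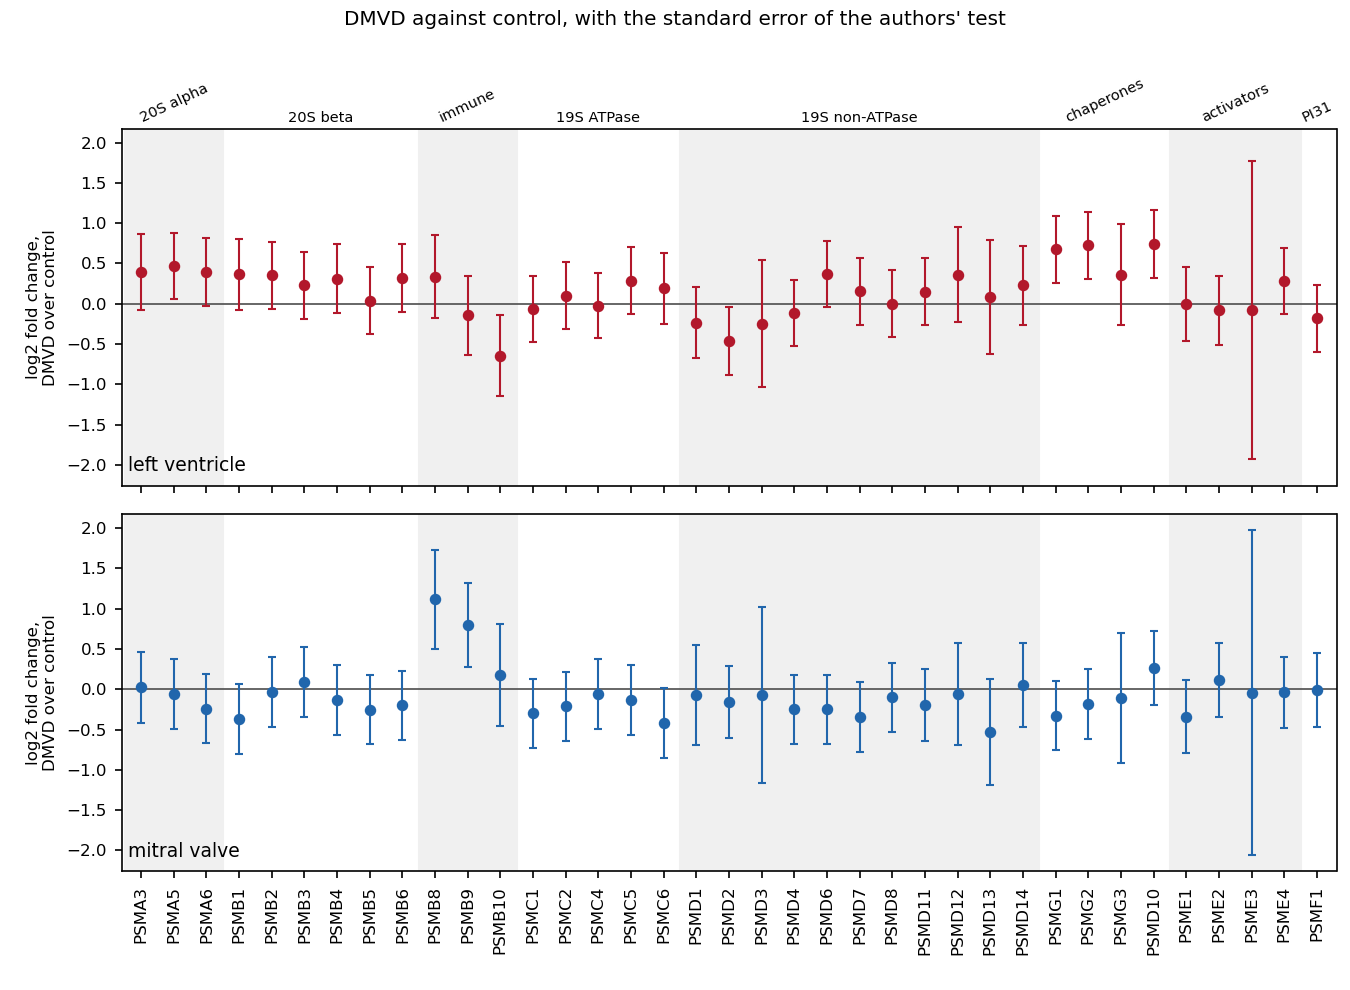
Log2 fold change of DMVD over control for the 37 tested proteasome genes in the left ventricle (above) and the mitral valve (below), with bars of 1 SE from the authors' test. The ventricle's highest points are PSMD10, PSMG2 and PSMG1, and the valve's are PSMB8 and PSMB9; 0 genes were called in either tissue.

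Of the immune catalytic subunits, PSMB8 and PSMB9 had the largest positive estimates among the tested proteasome genes of the valve. PSMB8 (chromosome 12, 2419455 to 2422832, CanFam3.1), which takes the place of PSMB5, had 11.0 FPKM in DMVD and 5.09 FPKM in control valve, a log2 fold change of 1.12 ± 0.62. PSMB9 (chromosome 12, 2432578 to 2441456), which takes the place of PSMB6, had 4.68 and 2.69 FPKM (0.80 ± 0.53). PSMB10 (chromosome 5, 81561174 to 81563512), which takes the place of PSMB7, had 9.81 and 8.67 FPKM (0.18 ± 0.64). So all 3 had higher DMVD values in the valve, but none was called, and the 95% interval of PSMB8 ran from -0.10 to 2.33. The unadjusted p of PSMB8 was 0.0716 in the authors' deposited table, the smallest of the 37 in that tissue. In the ventricle the 3 did not move together: PSMB8 had 7.26 and 5.75 FPKM (0.34 ± 0.51), PSMB9 1.78 and 1.97 FPKM (-0.14 ± 0.49) and PSMB10 8.43 and 13.2 FPKM (-0.65 ± 0.50). That value of PSMB10 was the lowest log2 fold change of any tested proteasome gene in the ventricle, with an adjusted p of 0.777. PSMB11, the beta subunit of the thymic cortex, was listed at 0 in both ventricle groups and in the control valve, and at 0.0412 FPKM in the DMVD valve.

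**Figure D3:**
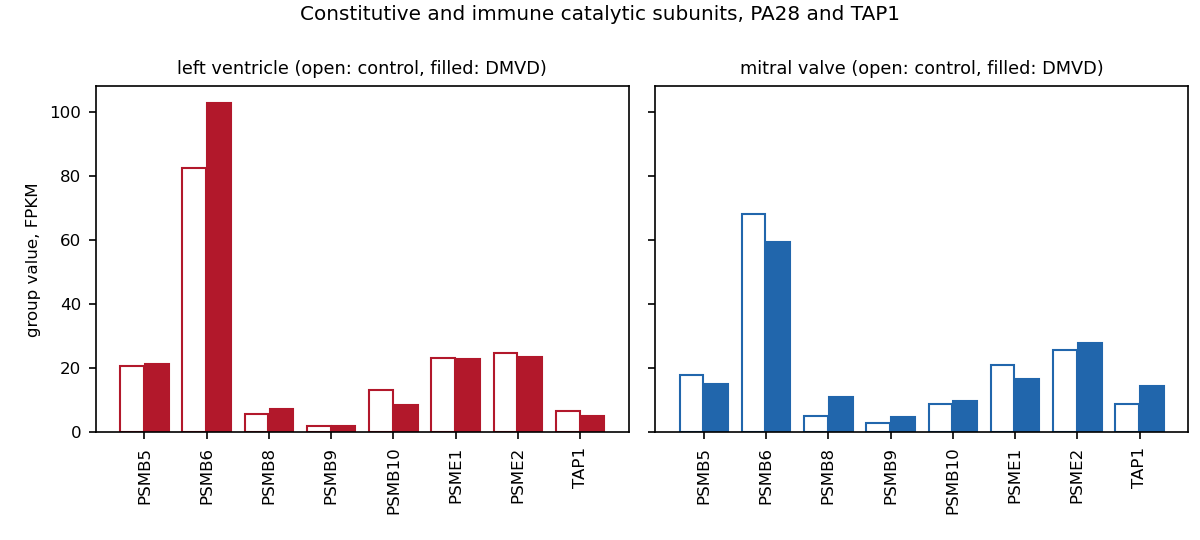
Group values in FPKM of constitutive subunits (PSMB5, PSMB6), immune subunits (PSMB8, PSMB9, PSMB10), the PA28 activator genes PSME1 and PSME2, and the peptide transporter gene TAP1, with control as open and DMVD as filled bars. In the valve PSMB8, PSMB9 and TAP1 are higher in DMVD and PSMB5 and PSMB6 lower; none of these differences was called.

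Set against the subunit it replaces, PSMB8 stood at 73.7% of the PSMB5 level in the DMVD valve and at 28.5% in the control valve. In the ventricle the same ratio was 34.3% and 27.8%. PSMB9 stood at 7.87% of PSMB6 in the DMVD valve and at 3.95% in the control valve, and at 1.73% and 2.38% in the ventricle. The ratio was thus 2.58 times higher for PSMB8 and 1.995 times higher for PSMB9 in the DMVD than in the control valve. These are ratios of group values without an error. Leukocytes express the immune subunits at a high level, and their markers stood higher in the DMVD valve as well: all 5 tested leukocyte markers had higher values, 0 were called, and the sum over the 6 found was 277 FPKM against 68.4, none being listed at 0. The leukocyte surface phosphatase PTPRC had 4.45 and 1.11 FPKM (2.01 ± 0.74, adjusted p of 0.447), and the MHC class II invariant chain CD74 had 257 and 60.4 FPKM (2.09 ± 0.63, adjusted p of 0.129). CD74 thus made up most of both sums. CD68, at a locus shared by 17 genes, had 0.96 ± 4.17. The part of the leukocyte markers in the PSMB8 and PSMB9 values was not tested.

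PSMB8 and PSMB9 flank the transporter gene TAP1 within the MHC region, and TAP1 (chromosome 12, 2424464 to 2432068) lies 1631 bases from PSMB8 and 509 bases from PSMB9. TAP1, a subunit of the pump that carries proteasome peptides into the endoplasmic reticulum, had 14.4 and 8.78 FPKM in the valve (0.71 ± 0.47) and 5.04 and 6.42 FPKM in the ventricle (-0.35 ± 0.45). Of 7 tested antigen processing genes other than proteasome subunits 0 were called in either tissue. All 7 had higher DMVD values in the valve, with a median of 0.71, and 4 of 7 in the ventricle, with a median of 0.15. Over all tested genes 54.9% were higher in the valve and 46.8% in the ventricle. NLRC5, the activator of MHC class I genes, lies at a locus shared by 3 genes. It had 2.19 and 1.001 FPKM in the valve (1.13 ± 0.72) and 2.77 and 1.33 FPKM in the ventricle (1.06 ± 0.51, adjusted p of 0.392). ERAP1, the peptidase that trims these peptides, had -0.63 ± 0.47 in the ventricle.

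Interferon response genes are induced beside the immune subunits. Of 8 tested in the ventricle 1 fell, IFIT2 (0.209 FPKM in DMVD and 1.12 in control, -2.42 ± 0.65, adjusted p of 0.0105), and 7 of 8 had lower values, with a median of -1.09. The call of IFIT2 was lost with the Benjamini-Yekutieli adjustment, at an adjusted p of 0.106, and its mean lay under the floor of 1 FPKM. The tested interferon response genes were low in the ventricle, with a median of 0.54 FPKM in DMVD and 1.55 FPKM in control. IRF7, at a locus shared by 7 genes, had -1.91 ± 5.53. IFIT3 had -1.66 ± 0.72 there. Of 9 tested in the valve 0 were called and all 9 had higher values, with a median of 0.54, among them MX1 (0.64 ± 0.48) and IFIT1 (0.68 ± 0.62). The share of all tested genes with a higher DMVD value was 46.8% in the ventricle and 54.9% in the valve.

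The 19S ATPases, the ring that unfolds substrates and opens the core, had 5 tested members with values close to 0 in the ventricle. In the ventricle they ran from -0.06 ± 0.41 for PSMC1 to 0.29 ± 0.41 for PSMC5, with 3 of 5 higher in DMVD. PSMC1 had 38.1 and 39.9 FPKM, PSMC2 46.1 and 43.1 FPKM and PSMC4 22.5 and 22.8 FPKM in DMVD and control ventricle. PSMC5 had 126 and 103 FPKM and PSMC6 110 and 95.9 FPKM. In the valve all 5 had lower DMVD values, from -0.06 ± 0.43 for PSMC4 to -0.41 ± 0.43 for PSMC6, the latter with 53.7 and 71.5 FPKM. PSMC1 had 38.7 and 47.7 FPKM (-0.30 ± 0.43), PSMC2 36.2 and 41.9 FPKM (-0.21 ± 0.43) and PSMC5 90.1 and 99.0 FPKM (-0.14 ± 0.43). The row named PSMC6 is uncertain: it spans 1186 bases on chromosome 32 (35815132 to 35816317), and none of the 5 named genes on either side of it is a neighbour of PSMC6 in the RefSeq annotation of the assembly UU_Cfam_GSD_1.0. The same held for PSMG4 and for no other of the 40 genes. Reads from PSMC6 and a near-identical copy could have been split or merged by the authors' counting, so its value is given as listed.

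The 19S non-ATPases, which hold the ubiquitin receptors, scaffolds and the deubiquitinase of the cap, had 11 tested members with mixed values in the ventricle. There 7 of 11 were higher in DMVD, with a median of 0.09. The scaffold PSMD2, which also binds ubiquitin shuttles, had 26.4 and 36.4 FPKM (-0.46 ± 0.42, adjusted p of 0.8604), and its partner scaffold PSMD1 had 17.4 and 20.5 FPKM (-0.23 ± 0.44). The ubiquitin receptor PSMD4 had 27.6 and 29.8 FPKM (-0.11 ± 0.41). At the other end PSMD6 had 37.0 and 28.7 FPKM (0.37 ± 0.41), and the deubiquitinase PSMD14 had 32.5 and 27.8 FPKM (0.23 ± 0.49). PSMD12 had 23.1 and 18.0 FPKM (0.36 ± 0.59), PSMD7 17.9 and 16.1 FPKM (0.15 ± 0.42) and PSMD11 16.5 and 14.9 FPKM (0.15 ± 0.42). PSMD8 was listed at 58.3 and 58.2 FPKM. In the valve 10 of 11 were lower in DMVD, with a median of -0.16, and the exception was PSMD14, at 30.3 and 29.3 FPKM (0.05 ± 0.52). PSMD2 had 34.0 and 38.0 FPKM there, PSMD4 26.9 and 31.9 FPKM, PSMD7 13.1 and 16.6 FPKM and PSMD6 25.7 and 30.6 FPKM. PSMD8 had 52.0 and 55.7 FPKM, PSMD11 14.0 and 16.1 FPKM, PSMD12 18.0 and 18.8 FPKM, PSMD1 24.6 and 25.8 FPKM and PSMD3 27.1 and 28.6 FPKM. The lowest valve log2 fold change of any tested proteasome gene was that of PSMD13, with 37.7 and 54.3 FPKM (-0.53 ± 0.66). Summed over ATPases and non-ATPases, the cap stood at 678 FPKM in DMVD and 635 in control ventricle, a ratio of 1.07, and at 548 and 633 FPKM in the valve, a ratio of 0.866. In the valve the cardiomyocyte marker sum was lower in DMVD too, as given above, and its part in the proteasome values was not tested.

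PSMD13 and PSMD3 share their listed locus with other genes, 10 and 12 genes in all, as do 5 further members: PSMA3, PSMD1, PSMD14, PSME1 and PSME3. Sharing went with a wider error in several of them, with an SE of 0.79 for PSMD3 (19.5 and 23.2 FPKM, log2 fold change -0.25) and 0.71 for PSMD13 (0.09) in the ventricle. Overlapping genes can share reads, so these values are less certain than those of the 33 genes alone at their locus. Of the 30 tested genes alone at their locus 22 had higher DMVD values in the ventricle and 6 in the valve.

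The assembly chaperones, which build the particle and then leave it, held the 3 largest log2 fold changes among the tested proteasome genes of the ventricle. PSMG1 and PSMG2 form the dimer that starts the alpha ring. PSMG1 (chromosome 31, 33914689 to 33926799) had 44.9 FPKM in DMVD and 28.1 in control ventricle (0.68 ± 0.41, 95% interval -0.14 to 1.49). PSMG2 (chromosome 7, 78092978 to 78113139) had 79.3 and 48.0 FPKM (0.72 ± 0.42, -0.10 to 1.55). PSMD10, or gankyrin, which chaperones the base of the cap (chromosome X, 81624648 to 81632448), had 18.4 and 11.0 FPKM (0.74 ± 0.43, -0.09 to 1.58). PSMG3 had 12.03 and 9.37 FPKM (0.36 ± 0.63). All 4 tested chaperones therefore had higher DMVD values in the ventricle, with a median of 0.70, and summed to 155 FPKM against 96.5, a ratio of 1.60. None was called, and their adjusted p were 0.556 for PSMD10, 0.561 for PSMG2, 0.607 for PSMG1 and 0.995 for PSMG3. In the valve PSMG1 had 28.7 and 36.1 FPKM (-0.33 ± 0.43), PSMG2 36.1 and 40.9 FPKM (-0.18 ± 0.44) and PSMG3 9.97 and 10.8 FPKM (-0.11 ± 0.81). PSMD10 was higher in DMVD there as well, with 15.0 and 12.5 FPKM (0.26 ± 0.46). The row named PSMG4 was listed at 0 in 3 groups and at 0.00113 FPKM in the control valve, and its neighbours did not match those of PSMG4 in RefSeq, so it says nothing of that chaperone.

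The activators cap the core without ubiquitin recognition. PSME1 and PSME2, the interferon-inducible subunits of PA28, lie 813 bases apart on chromosome 8. In the ventricle their estimates were near 0, with 23.0 and 23.1 FPKM for PSME1 (-0.01 ± 0.46) and 23.4 and 24.8 FPKM for PSME2 (-0.08 ± 0.43). In the valve PSME1 had 16.6 and 21.1 FPKM (-0.34 ± 0.45) and PSME2 28.0 and 25.8 FPKM (0.12 ± 0.46). In the valve PSME1 thus had a lower and PSME2 a higher value in DMVD, and neither was called. The nuclear activator PSME3 had 19.3 and 20.4 FPKM in the ventricle with an SE of 1.85, and 20.1 and 20.7 FPKM in the valve with an SE of 2.01. Its 95% interval in the ventricle ran from -3.70 to 3.55, so almost nothing can be said of its change. PSME4, the PA200 activator, had 8.26 and 6.79 FPKM in the ventricle (0.28 ± 0.41) and 8.03 and 8.25 FPKM in the valve (-0.04 ± 0.44). PSMF1, or PI31, an inhibitor of the core in vitro, had 25.5 and 29.0 FPKM in the ventricle (-0.18 ± 0.42) and 23.3 and 23.5 FPKM in the valve (-0.01 ± 0.46).

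The DMVD effects were then compared between the tissues gene by gene, as valve minus ventricle log2 fold change over their combined SE. Of 37 proteasome genes 0 differed at an adjusted p of 0.05, in a background of 0.107% of 13099 genes, and 0 had an unadjusted p under 0.05, in a background of 2.66%. The difference was below 0 for 28 of the 37, with a median of -0.33, while 46.7% of all genes were below 0 and their median was 0.05. PSMG1 had the smallest p, with a difference of -1.004 ± 0.596, followed by PSMG2 with -0.90 ± 0.61. The immune subunits lay on the other side, with 0.94 ± 0.72 for PSMB9, 0.83 ± 0.81 for PSMB10 and 0.78 ± 0.81 for PSMB8. The opposite sides of the tissues seen in the counts were therefore not established for any single gene. Because 3 control dogs and 1 DMVD dog gave both tissues, the errors are not fully independent.

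**Figure D4:**
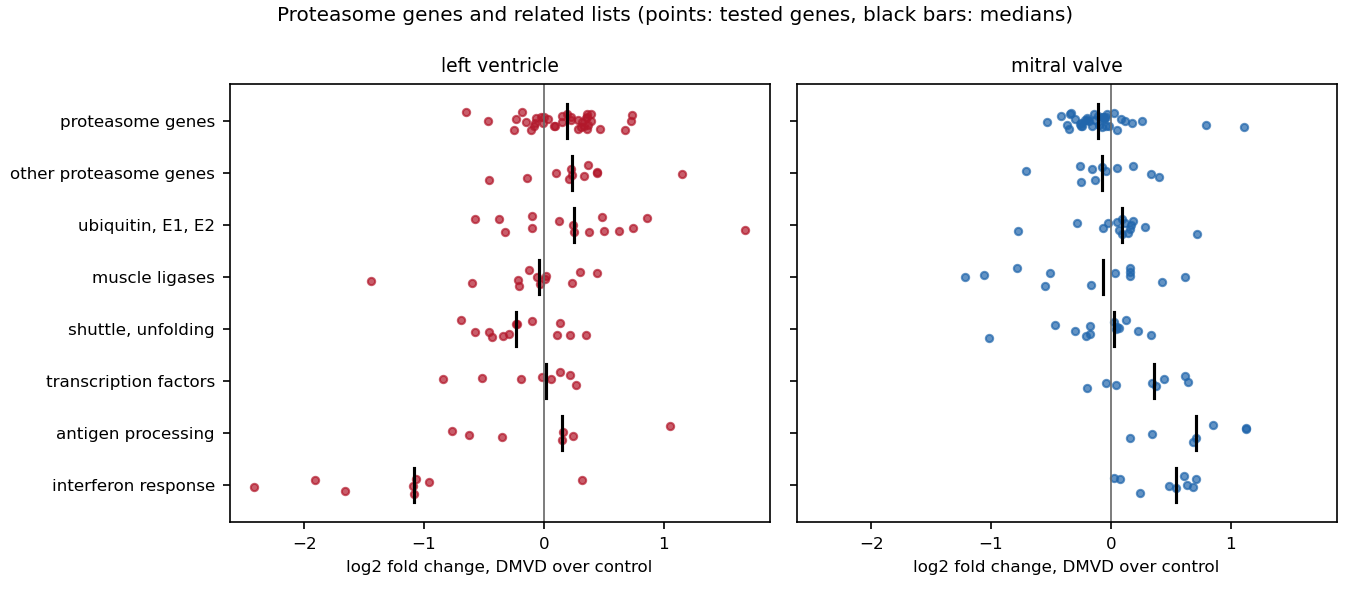
Log2 fold changes of the 37 tested proteasome genes and of the tested genes of 7 related lists in each tissue, with each gene as a point and each list's median as a black bar. The proteasome genes are grouped around their median of 0.19 in the ventricle and -0.11 in the valve, and 7 of 8 interferon response genes lie below 0 in the ventricle and 9 of 9 above 0 in the valve.

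Other genes of the pathway were read from lists, with 1 call among 74 tested ventricle genes, that of IFIT2, and 0 among 75 in the valve. Over all tested genes 3.08% were called in the ventricle and 0.419% in the valve, so these counts are no result about the lists. Of 11 genes without a PSM name, listed as further proteasome subunits, their partners or relatives of these, 0 were called. Their median was 0.23 in the ventricle and -0.07 in the valve. ZFAND2A, an arsenite-inducible proteasome-binding protein, had 1.15 ± 0.78 in the ventricle, and AKIRIN1 had 0.45 ± 0.55. The deubiquitinase USP14, which sits on the cap, had -0.25 ± 0.44 in the valve, where AKIRIN2, which brings proteasomes into the nucleus, had 0.34 ± 0.46. Of 15 ubiquitin, E1 and E2 genes 0 were called. The conjugating enzymes UBE2D2 (0.86 ± 0.41, adjusted p of 0.385) and UBE2D3 (0.63 ± 0.41) had the smallest p in the ventricle, and UBE2D1 (-0.77 ± 0.45) and the E1 enzyme UBA6 (-0.28 ± 0.50) in the valve. The row named UBE2D3 (chromosome 21, 44734922 to 44735374) is short, like that of PSMC6. The neighbours of UBE2D3 were not compared with RefSeq, so its value is given as listed.

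Of 12 muscle ubiquitin ligases 0 were called in either tissue. FBXO40, a muscle-specific ligase subunit, had 17.5 and 47.5 FPKM in the ventricle (-1.44 ± 0.50, adjusted p of 0.102) and 11.6 and 27.1 FPKM in the valve (-1.22 ± 0.59). ASB2 had -0.60 ± 0.44 in the ventricle, and TRIM54, a ligase of the sarcomere, -1.06 ± 0.47 in the valve. Of 13 shuttle and unfolding factors 0 were called, with the smallest p for NPLOC4 (-0.69 ± 0.52) and UBQLN2 (-0.57 ± 0.45) in the ventricle, and for DDI2 (-1.02 ± 0.95) and the chaperone HSPA8 (-0.46 ± 0.67) in the valve. TRIM54, NPLOC4 and HSPA8 lie at loci shared by 2, 2 and 4 genes. Of 8 transcription factors of proteasome genes 0 were called. NFE2L1, which restores proteasome gene expression when proteasomes are inhibited, had 79.3 and 113 FPKM in the ventricle (-0.51 ± 0.50). IRF1, which induces the immune subunits, had 1.63 and 2.92 FPKM in the ventricle (-0.84 ± 0.49) and 4.54 and 2.91 FPKM in the valve (0.64 ± 0.53).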

How the data were processed

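The labels describe RNA from a fibrous tissue kit, TruSeq libraries and Illumina sequencing. Cutadapt, Bowtie, TopHat and CanFam3.1 are named, unversioned, in the submitters' processing notes; the tool behind the gene values was not stated there. Per the file headers, the authors' tables hold 1 value per group, laid out as Cuffdiff does and read here as FPKM. The authors' deposited fold change and test statistic are scores with placeholders where a group is 0. That fold change is of control over DMVD, while the sign of the statistic follows DMVD over control. The authors' deposited p-value is unadjusted and differs from a two-sided normal p computed from the statistic by at most 2.84e-06. Dividing the log2 fold change by that statistic therefore gave the SE, which is an error of the authors' model and cannot be checked against single dogs here.

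Fold changes were computed anew from the group values; a group at 0 gives none. The Benjamini-Hochberg adjustment ran over a tissue's tested genes, and the code was tested on simulated data. The tissue difference used a two-sided normal p. Software was Python 3.11.15 with scipy 1.17.1, pandas 2.3.3, numpy 2.4.6 and matplotlib 3.10.9. Symbols of 11 rows came from UniProt entry names. All 40 members matched RefSeq symbols, used only to compare neighbours (5 each side). A list name on more than 1 row was left out. Members and lists were chosen with earlier results of these data known. Values were printed for members past 0.05, catalytic and activator genes, the smallest p of each role, the 3 highest and lowest changes, and up to 2 genes per pathway list, of which 1 is not reported here; other members and list genes were added after their values were seen. Alternatives were a 1 FPKM floor, 1 or 0.1 FPKM added, centring, genes tested in both tissues, Benjamini-Yekutieli and unshared loci.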

Additional observations from a re-analysis of the deposited data

How the results depend on the processing

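The count of called proteasome genes stayed at 0 in both tissues and in the tissue difference under every alternative run. Adding 1 or 0.1 FPKM left the p values as they were, and Benjamini-Yekutieli is stricter. These alternatives could not have raised that count. The medians, the counts of higher values and the other counts over all genes stayed on their side and within 1.5 times. With the Benjamini-Yekutieli adjustment the genes called fell to 221 of 13788 in the ventricle and to 15 of 14810 in the valve, by its construction a stricter rule. Of 504 single values of proteasome genes under alternatives, 501 kept their direction, though only centring could have changed one. The other 3 crossed 0 when centred on the median of all tested genes: PSMC4 (0.020) and PSME1 (0.034) in the ventricle and PSMA3 (-0.024) in the valve. The neutrophil call in the valve, S100A9, was lost when centred (adjusted p of 0.0558) and with Benjamini-Yekutieli (0.474), which also ended the ventricle calls of IFIT2, VWF, the erythroid marker ALAS2 and the adipocyte marker CIDEC. IFIT2 was also left out by the 1 FPKM floor. No paired analysis was possible because the tables hold 1 value per group, and for the same reason no library could be left out. The depth of the libraries and the spread between dogs are unknown.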
